A study of Mus musculus with 18 samples.

Results

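The enzymes that write, copy and remove DNA methylation were followed through siRNA knockdown of *Stag1*, a subunit of the cohesin complex that holds and loops DNA, in mouse embryonic stem cells (mESCs). The members were 9 genes chosen by name, *Dnmt1*, *Dnmt3a*, *Dnmt3b*, *Dnmt3l*, *Uhrf1*, *Tet1*, *Tet2*, *Tet3* and *Tdg*, out of 18659 genes in the expression table, and all 9 had a row. The cells were the male E14 line, grown on gelatin in serum (FCS) with LIF, and they carried no engineered allele that the labels or methods name. RNA was collected after 24 h of siRNA treatment and depleted of rRNA before 16 libraries were sequenced in 3 replicate sets. Scrambled siRNA (scr) had 1 library in every set. SP siRNA had 3 libraries in set 1, named 1a, 1b and 1c, and 1 library in each of the other sets. The 3p, 5p and SATS siRNAs were used in sets 2 and 3 with 1 library per set, untreated cells in set 2 and luciferase siRNA (Luc) in set 3. SP is a commercial pool of siRNAs to *Stag1*, and 3p and 5p are siRNAs to the ends of the *Stag1* mRNA that their names give. The 3p siRNAs are commercial and, by catalogue number, are also in the SP pool, while 5p is 1 custom duplex. SATS is an enzymatically prepared siRNA mixture to the 5′ UTR made from an upstream start site of the same name. Luc and scr have no target in these cells and served as transfection controls. Luc was, like SATS, enzymatically prepared, while scr, SP, 3p and 5p were not. What separates the 3 SP libraries of set 1 from each other was not given in the sources used here, and the study calls its replicates independent without saying whether sets came from separate cultures, so the tests measure the spread between these libraries. Not analysed here were 2 samples from 2i culture.

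Methylation of cytosine at CpG sites is copied at each replication by DNMT1, which UHRF1 brings to newly copied DNA, methylated on the old strand alone. DNMT3A and DNMT3B place methylation on sites that had none, with DNMT3L as a partner that has no catalytic activity of its own. TET1, TET2 and TET3 oxidise 5-methylcytosine, and TDG cuts the most oxidised forms out of DNA so that base excision repair can put back an unmodified cytosine. Mouse ESCs grown in serum are known for high levels of both the de novo methyltransferases and TET1 and TET2, and for low TET3.

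Short stretches of sequence matter here because the deposited values are read counts, and reads from a close copy of a gene can be counted for either copy. Of the 75-base windows along each member's coding transcript (75 bases was the read length), 47.2% in *Tdg* occur letter for letter in transcripts of 4 other annotated genes, and within its coding part 77.9% do. The copies are the processed pseudogenes *Tdg-ps* and *Gm9855*, together with *Gm5597* and AC122846.1. *Uhrf1* shared 11.3% of its windows with *Gm5648* and *Dnmt3b* 7.72% with *Dnmt3c*, while *Dnmt1*, *Dnmt3a*, *Dnmt3l*, *Tet1*, *Tet2* and *Tet3* shared none. The 120 coding bases below run from base 989 to base 1108 of the *Tdg* transcript ENSMUST00000151390.7, with capitals at the positions where the 3 genes are not all alike.
Tdg: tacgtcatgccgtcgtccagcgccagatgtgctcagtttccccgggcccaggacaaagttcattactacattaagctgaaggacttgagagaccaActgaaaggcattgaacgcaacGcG
Tdg-ps: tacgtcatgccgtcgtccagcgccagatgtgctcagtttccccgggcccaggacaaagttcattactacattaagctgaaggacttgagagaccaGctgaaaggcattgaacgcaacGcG
Gm9855: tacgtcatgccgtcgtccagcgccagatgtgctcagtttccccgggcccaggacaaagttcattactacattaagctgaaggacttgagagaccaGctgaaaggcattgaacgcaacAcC
*Tdg-ps* differed from *Tdg* at 1 of these positions and *Gm9855* at 3, so a read that misses those positions has no letter that tells the genes apart. The same holds over part of the catalytic region shared by *Dnmt3b* (bases 2193 to 2312 of ENSMUST00000109774.8) and *Dnmt3c*, which differ at 6 of 120 positions, marked by capitals.
Dnmt3b: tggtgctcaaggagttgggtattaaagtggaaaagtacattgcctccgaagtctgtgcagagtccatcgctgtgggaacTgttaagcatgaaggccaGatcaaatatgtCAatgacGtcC
Dnmt3c: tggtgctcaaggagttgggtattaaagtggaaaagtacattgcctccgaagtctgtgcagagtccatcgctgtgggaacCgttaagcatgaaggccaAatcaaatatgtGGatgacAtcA
*Tdg* is therefore the member whose value is least certain, and it is also the one with the fewest reads, 3 to 5 per library in set 1 and 23 to 68 in sets 2 and 3.

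The members also differ in what stands before their start sites. RefSeq (GRCm38.p6) gave 16 promoters for the 9 genes, each 250 bases before and 50 after a start site, beside 32851 promoters of all genes with a median of 7 CpG. *Tet2* held 57 CpG, more than 99.8% of all promoters, and *Tet1* held 17, more than 68.6%. The 3 promoters of *Dnmt3l* held 6, 4 and 3 CpG, and the 3 of *Dnmt3a* held 46, 47 and 18. The 250 bases before the start site of *Tet1* and *Tet2*, the members whose values stood below scr most often, are printed with each CG in capitals. That of *Tet2* is at chr3:133544391-133544640 on the minus strand and holds 51 CpG. That of *Tet1* is at chr10:62887325-62887574 on the minus strand and holds 15. Both lie inside the annotated genes, whose 5′ ends are at chr3:133545139 for *Tet2* and, much further upstream, at chr10:62908996 for *Tet1*. The *Tet3* promoter (chr6:83441629-83441928) also lies inside its gene, which begins at chr6:83459084.
Tet2: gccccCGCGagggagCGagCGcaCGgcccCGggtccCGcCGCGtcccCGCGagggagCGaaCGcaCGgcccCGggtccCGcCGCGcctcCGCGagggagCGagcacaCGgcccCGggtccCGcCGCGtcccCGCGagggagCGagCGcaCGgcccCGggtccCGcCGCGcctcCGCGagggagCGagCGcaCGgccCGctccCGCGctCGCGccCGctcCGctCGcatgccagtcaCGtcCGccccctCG
Tet1: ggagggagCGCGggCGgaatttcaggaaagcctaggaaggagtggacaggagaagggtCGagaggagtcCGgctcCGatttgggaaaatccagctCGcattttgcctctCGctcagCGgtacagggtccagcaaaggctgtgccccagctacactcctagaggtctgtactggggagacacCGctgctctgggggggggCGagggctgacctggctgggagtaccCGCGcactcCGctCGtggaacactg
The *Tet2* sequence is built from a CpG-dense unit that recurs with small changes, while the CpGs of *Tet1* are spread thinly. Both strands of all promoters were searched for 4 motifs of factors active in mESCs. The E2F core TTTCGCGC was in 0.323% of all promoters and in 1 promoter each of *Dnmt1* and *Uhrf1*, the maintenance pair. The E-box CACGTG was in 7.15% of all promoters and in 1 each of *Dnmt3a*, *Dnmt3l* and *Tdg*. Neither the ESRRB motif AAGGTCA (4.72% of all promoters) nor the octamer ATTTGCAT (1.74%) was in any of the 16. These are matches of letters at the RefSeq start sites alone and carry no measurement of binding.

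The knockdown and the cells were checked first. *Stag1* (chr9:100597798-100959375, plus strand) had a normalised read count, which is the reads of a gene divided by the authors' size factor of the library, of 2016, 1876 and 2113 in scr of sets 1, 2 and 3. It lay at 17.3% to 32.8% of scr of the same set in the 9 libraries of SP, 3p and 5p and at 50.5% and 49.7% in the 2 SATS libraries. The ESC label held, with all 8 ESC markers present in every library and *Pou5f1* (Oct4) at 7128 to 11940. Set 1 stood apart, with 9023224 to 14040830 reads on genes of which the 45S pre-rRNA gene *Rn45s* took 69.2% to 79.1%, against 32137666 to 45660840 reads and 14.7% to 23.9% in sets 2 and 3. The summed ESC markers were 62211 in scr of set 1 and 32898 to 48654 in its SP libraries, against 27741 to 37520 in sets 2 and 3. Summed primed epiblast markers were 2417 in scr of set 1 and 3479 to 5815 in its SP libraries. They were 5611 to 6106 in set 2 and 5235 to 5885 in set 3. Primitive endoderm markers summed to 158 to 522, 257 to 338 and 177 to 241 in sets 1, 2 and 3. Two-cell-like markers summed to 38.6 to 451, 168 to 246 and 27.8 to 66.6. Summed fibroblast markers (6 genes, collagens among them) were 2631 to 5731 in set 2, highest in untreated cells, 361 to 568 in set 3 and 83.6 to 451 in set 1, where *Col3a1*, *Postn* and *Twist2* each had under 3 reads in every library and *Col1a2* in some. The part that these differences play in the results below was not tested, and in bulk RNA fewer cells of a type and less RNA per cell cannot be told apart.

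In scr the members spanned a wide range of level. Length was that of all annotated exons of a gene together, 16642 bases for *Dnmt3a* and 5106 for *Dnmt3b*. The coding transcripts used for the windows above have 9685 and 4320 bases. Which exons these cells use was not tested, so the order, shares and ratios per kb depend on the length taken. Per kb of exon, *Tet1* averaged 1429 ± 778 (SD, n = 3 libraries), *Uhrf1* 1399 ± 10.7, *Dnmt3b* 1356 ± 741 and *Dnmt3l* 1348 ± 183 normalised reads. *Dnmt1* followed at 773 ± 128, *Tet2* at 215 ± 178, *Dnmt3a* at 157 ± 47.4, *Tet3* at 40.0 ± 15.6 and *Tdg* at 4.27 ± 0.622. Neighbours in this order were apart in all pairs of scr libraries only for *Dnmt3l* over *Dnmt1*, *Dnmt1* over *Tet2*, *Dnmt3a* over *Tet3* and *Tet3* over *Tdg*. The first 4 genes changed places between sets, *Dnmt1* stood above *Dnmt3b* in set 1 alone, and *Tet2* and *Dnmt3a* changed places too. *Tet1* made up 84.0% to 88.0% of the summed level of the 3 TET genes per kb in set 1, 81.5% to 83.6% in set 2 and 86.8% to 88.1% in set 3. *Dnmt3b* stood above *Dnmt3a* per kb by a ratio of 5.31 (scr) to 11.8 in set 1, of 8.96 to 9.58 in set 2 and of 9.91 to 11.4 in set 3. The share of *Tet3* was the smallest of the TET genes in each set, between 0.812% and 3.55% in set 1 and between 3.91% and 6.81% in the other sets.

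**Figure D1:**
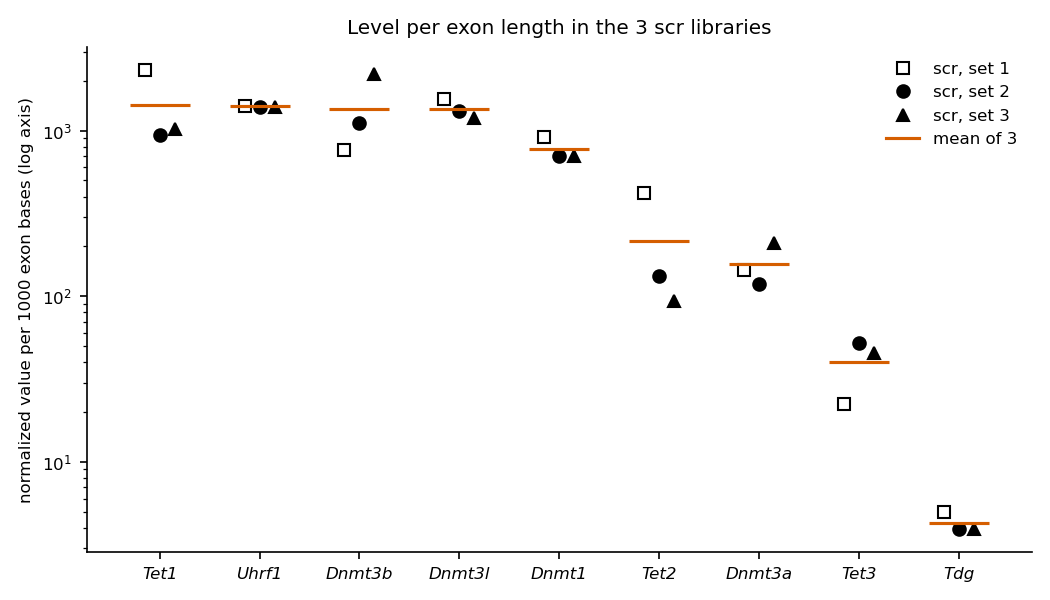
Level of the 9 members in the 3 scr libraries, as normalised reads per kb of exon on a log axis, with 1 point per library. The first 4 genes overlap between libraries, and Tdg lies lowest at 3.90 to 4.98.

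Each knockdown was compared with scr in limma on log2(normalised read count + 1), with genes called where the p adjusted over all genes tested (Benjamini-Hochberg) was under 0.05. Without the set as a block, none of the 9 members was called for SP over 3 sets (0.00% of 15970 genes called, 84 genes at an unadjusted p under 0.05), nor in sets 2 and 3 for SP (0.00606% of 16490 genes called, 410 unadjusted), 3p (0.00606%, 286 unadjusted), 5p (0.0121%, 598 unadjusted) or SATS (0.00%, 650 unadjusted). The same held for 5p against 3p, with 0.00% called and 674 unadjusted. Libraries of the same set deviated together, so the fit with the set as a block is given beside it, and log2 differences below are from that fit. With the block, 0.00% of genes were called for SP over 3 sets, 0.746% for SP in sets 2 and 3, 0.285% for 3p, 2.37% for 5p, 2.64% for SATS and 3.26% for 5p against 3p. Of the members, 1 was then called, *Tet1* in SATS. Over 3 sets *Stag1* itself missed the threshold, with a log2 difference of -2.15 (SE 0.15) and adjusted p = 0.0534. All comparisons with scr share the scr libraries, and their values are given side by side without counting them as independent.

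**Figure D2:**
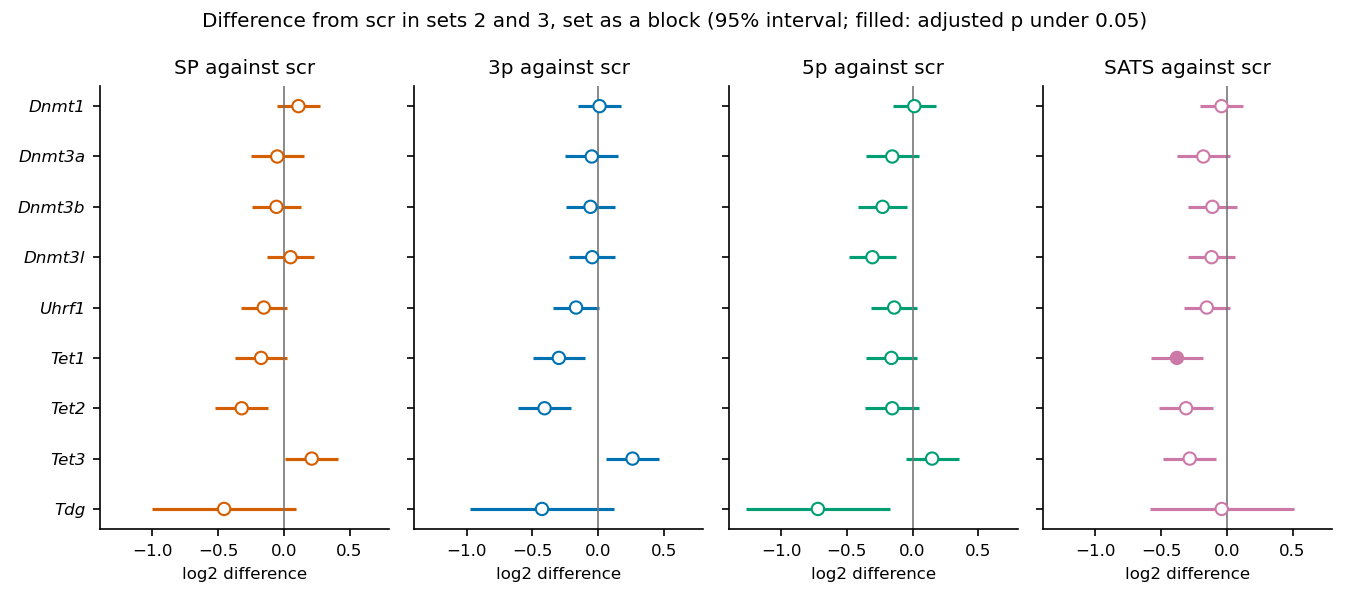
Log2 difference from scr of each member in each knockdown, from the limma fit with the set as a block, with bars for the 95% confidence interval. The Tet1 interval in SATS runs from -0.58 to -0.18, and Tdg has the widest intervals.

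*Tet1* (chr10:62804570-62908996, minus strand), which encodes the TET enzyme with the highest level in these cells, lay below scr of its set in all 11 knockdown libraries. Its normalised read count in set 1 was 35941 in scr and 30457, 26558 and 21430 in SP 1a, 1b and 1c. In set 2 it was 14522 in scr, 12229 in SP, 11443 in 3p, 13655 in 5p, 11785 in SATS and 13278 in untreated cells. In set 3 it was 15779 in scr, 14746 in SP, 13224 in 3p, 13432 in 5p, 11474 in SATS and 13954 in Luc. Scr was thus the highest library in every set, above the untreated and Luc libraries too, which reached 91.4% and 88.4% of scr. Within sets 2 and 3, SATS and 3p gave the lowest values, and the 3p library was the lowest in set 2 and the SATS library in set 3. SATS also lay below untreated cells in set 2 and below Luc in set 3. Luc, the control prepared enzymatically like SATS, was present in set 3 alone. Target and type of siRNA therefore cannot be told apart in SATS against scr. SATS differed from scr by -0.38 on the log2 scale (SE 0.091, 95% confidence interval -0.58 to -0.18, adjusted p = 0.0426), so *Tet1* fell by 23.2%. The same difference without the block had an adjusted p near 1, and it lost the call without SATS of set 3, scr of set 2 or scr of set 3. The other differences from scr did not pass, at -0.30 for 3p (adjusted p = 0.228), -0.17 for SP in sets 2 and 3 (0.463), -0.16 for 5p (0.424) and -0.27 for SP over 3 sets (0.759).

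*Tet2* (chr3:133463679-133545139, minus strand), the second TET gene of mESCs, was also below scr in 11 of 11 knockdown libraries. In set 1 its normalised read count was 7078 in scr and 5265, 3258 and 2674 in the SP libraries, so that SP 1c kept 37.8% of scr. In set 2 the values were 2225 in scr, 1598 in SP, 1615 in 3p, 1937 in 5p, 1890 in SATS and 2277 in untreated cells. In set 3 they were 1568 in scr, 1400 in SP, 1227 in 3p, 1453 in 5p, 1199 in SATS and 1429 in Luc. SP lay further below scr in set 1 than in the other sets, where the level in scr was itself over 3 times lower, and the untreated and Luc libraries were at 102.3% and 91.2% of scr. No difference passed the threshold with the block. The log2 difference was -0.41 for 3p (SE 0.095, adjusted p = 0.0946), -0.31 for SATS (adjusted p = 0.0926), -0.32 for SP in sets 2 and 3 (0.163) and -0.15 for 5p (0.464). Over 3 sets SP gave -0.52 (SE 0.14, adjusted p = 0.759). When the recovered reads were tested by edgeR (quasi-likelihood) with the same block, it gave -0.49 with adjusted p = 0.0235, where 0.664% of all genes were called. With set 1 left out, limma on the 4 scr and SP libraries alone gave -0.32 with adjusted p = 0.0221, where 3.33% of all genes were called. The same difference in the fit of 10 libraries did not pass (above), so the call depends on the test and on which libraries enter the fit.

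*Tet3* (chr6:83362373-83459084, minus strand), the TET gene best known from the oocyte and zygote, lay above scr in most knockdown libraries. Its normalised read count in set 1 was 375 in scr and 470, 682 and 950 in the SP libraries. In set 2 it was 873 in scr, 1080 in SP, 999 in 3p, 1053 in 5p, 752 in SATS and 1001 in untreated cells. In set 3 it was 756 in scr, 821 in SP, 950 in 3p, 771 in 5p, 593 in SATS and 774 in Luc. SATS was the lowest library of its set both times, at 86.2% and 78.3% of scr, and all 9 libraries of SP, 3p and 5p lay above scr. None of these differences from scr was called, with log2 differences of 0.21 for SP in sets 2 and 3, 0.26 for 3p, 0.15 for 5p and -0.28 for SATS and adjusted p from 0.116 to 0.476, while SP over 3 sets gave 0.44 (SE 0.16, adjusted p = 0.759). The untreated and Luc libraries were above scr as well, at 114.7% and 102.3%.

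The knockdowns were also set against each other, over 6 pairs and 9 members, or 54 differences, of which 4 were called with the block. All 4 came from pairs that were added after seeing the data. *Tet3* was lower in SATS than in SP, with a log2 difference of -0.50 (SE 0.093, adjusted p = 0.0078), where 9.42% of all genes were called. Against 3p the difference was -0.54 (adjusted p = 0.0097, 3.06% of all genes called), and against 5p it was -0.43 (adjusted p = 0.0158, 6.42% called). These 3 differences share the SATS libraries, whose *Stag1* level was 2.37 to 2.63 times that of the other knockdowns. SATS was also the only enzymatically prepared siRNA among the knockdowns, so target, *Stag1* level and type of siRNA cannot be told apart. The fourth was *Dnmt3l*, lower in 5p than in SP (-0.36, SE 0.082, adjusted p = 0.0225, 5.76% of all genes called). Between 3p and SP, which share siRNAs by catalogue number, 0.0970% of genes were called and no member was. The 95% interval of the *Tet1* difference ran from -0.32 to 0.07. The planned pair, 5p against 3p, had no member called either, with *Dnmt3l* at -0.26 (adjusted p = 0.116, interval -0.44 to -0.08) and *Tet2* at 0.25 (adjusted p = 0.193, interval 0.05 to 0.46). Without the block none of the 4 was called.

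**Figure D3:**
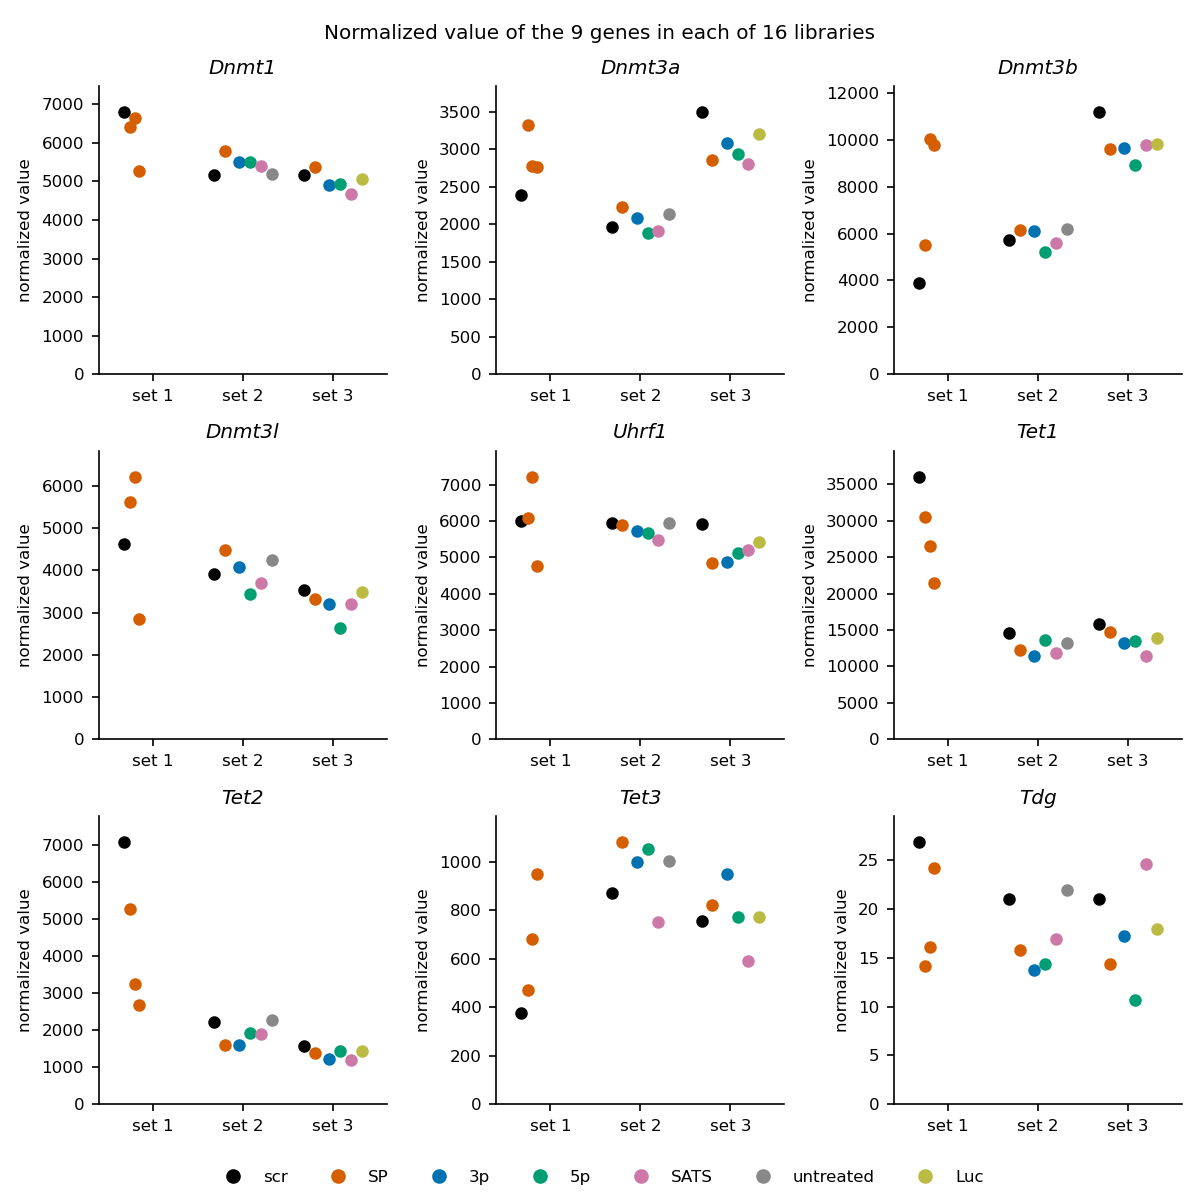
Normalised read count of each member in each of the 16 libraries, by set, on linear axes that start at 0 and differ between genes. In sets 2 and 3 the SATS points of Tet3 (752 and 593) lie lowest, and in set 1 scr of Tet1 and Tet2 (35941 and 7078) lies above every other library.

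The catalytic de novo genes *Dnmt3a* and *Dnmt3b* had levels in set 2 and set 3 that did not overlap, and no knockdown was called for either. The study itself, by its own edgeR test of SP against scr, names *Dnmt3b* among the upregulated genes. That test was not repeated here. *Dnmt3b* (chr2:153649450-153687730, plus strand), the de novo enzyme with the higher level here, had normalised read counts of 3897 in scr and 5519, 10041 and 9761 in SP 1a, 1b and 1c of set 1. In set 2 it ran from 5210 in 5p to 6205 in untreated cells with scr at 5716, and in set 3 from 8932 in 5p to 11164 in scr. Sets 2 and 3 did not overlap, and the SP libraries of set 1 were 142% to 258% of scr while those of sets 2 and 3 were 108% and 86.0%. *Dnmt3a* (chr12:3806007-3914443, plus strand) ran from 1884 in 5p to 2236 in SP in set 2 and from 2805 in SATS to 3492 in scr in set 3, again with no overlap. In set 1 it was 2391 in scr and 2762 to 3328 in SP. Of 11026 genes with a mean of at least 50, 30.4% had sets 2 and 3 apart in the same way, beside 3 of the 8 members at that level (*Dnmt3a*, *Dnmt3b* and *Tet2*). With the block, the log2 differences of *Dnmt3b* from scr were 0.33 for SP over 3 sets (SE 0.23), -0.06 for SP and for 3p in sets 2 and 3, -0.23 for 5p (adjusted p = 0.210) and -0.11 for SATS. The differences of *Dnmt3a* lay between -0.18 and 0.07, and none of either gene was called.

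*Dnmt3l* (chr10:78041947-78063622, plus strand), the cofactor, was the member with the largest difference from scr in 5p among the methyltransferase genes. Its normalised read count in set 2 was 3915 in scr, 4488 in SP, 4080 in 3p, 3432 in 5p, 3697 in SATS and 4238 in untreated cells. In set 3 it was 3547 in scr, 3321 in SP, 3195 in 3p, 2649 in 5p, 3197 in SATS and 3483 in Luc. The 5p library was the lowest of its set both times, at 87.7% and 74.7% of scr. In set 1 it was 4621 in scr and 5632, 6207 and 2851 in SP 1a, 1b and 1c, so the SP libraries lay on both sides of scr. The log2 difference of 5p from scr was -0.31 (SE 0.082, adjusted p = 0.0714), and with untreated and Luc added to the controls it was -0.33 with adjusted p = 0.0055, in a fit that called 6.71% of all genes. *Aire*, whose gene lies on the opposite strand over exons of *Dnmt3l*, had 33.2 to 134 normalised reads, and strand was stated as used in counting for paired-end samples alone. *Dnmt3aos*, listed at 0 throughout, and *Glt8d2*, at 0.416 to 2.19, lie likewise opposite exons of *Dnmt3a* and *Tdg*. *Gm42567* lies opposite exons of *Tet2* and is not analysed here.

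Neither gene of the maintenance pair was called in a comparison. *Dnmt1* (chr9:20907209-20959888, minus strand) ran from 4663 to 5784 normalised reads in the 12 libraries of sets 2 and 3 and from 5275 to 6790 in set 1. Its knockdown libraries lay on both sides of scr, 5 above and 3 below in sets 2 and 3. The log2 differences from scr were between -0.04 and 0.11. Their 95% intervals in sets 2 and 3 ran from -0.20 to 0.27. *Uhrf1* (chr17:56303321-56323486, plus strand) had 5955 normalised reads in scr of set 2 and 5471 to 5894 in its knockdowns, and 5916 in scr of set 3 and 4835 to 5208 in its knockdowns. All 8 knockdown libraries of sets 2 and 3 lay below scr, with set 3 lower than set 2 in each siRNA, and the untreated and Luc libraries were at 99.8% and 91.6% of scr. In set 1 *Uhrf1* was 6007 in scr and 6078, 7201 and 4751 in SP. In sets 2 and 3 its log2 difference from scr was -0.15 in SP and in SATS, -0.17 in 3p and -0.14 in 5p, with adjusted p from 0.335 to 0.498, and none was called.

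**Figure D4:**
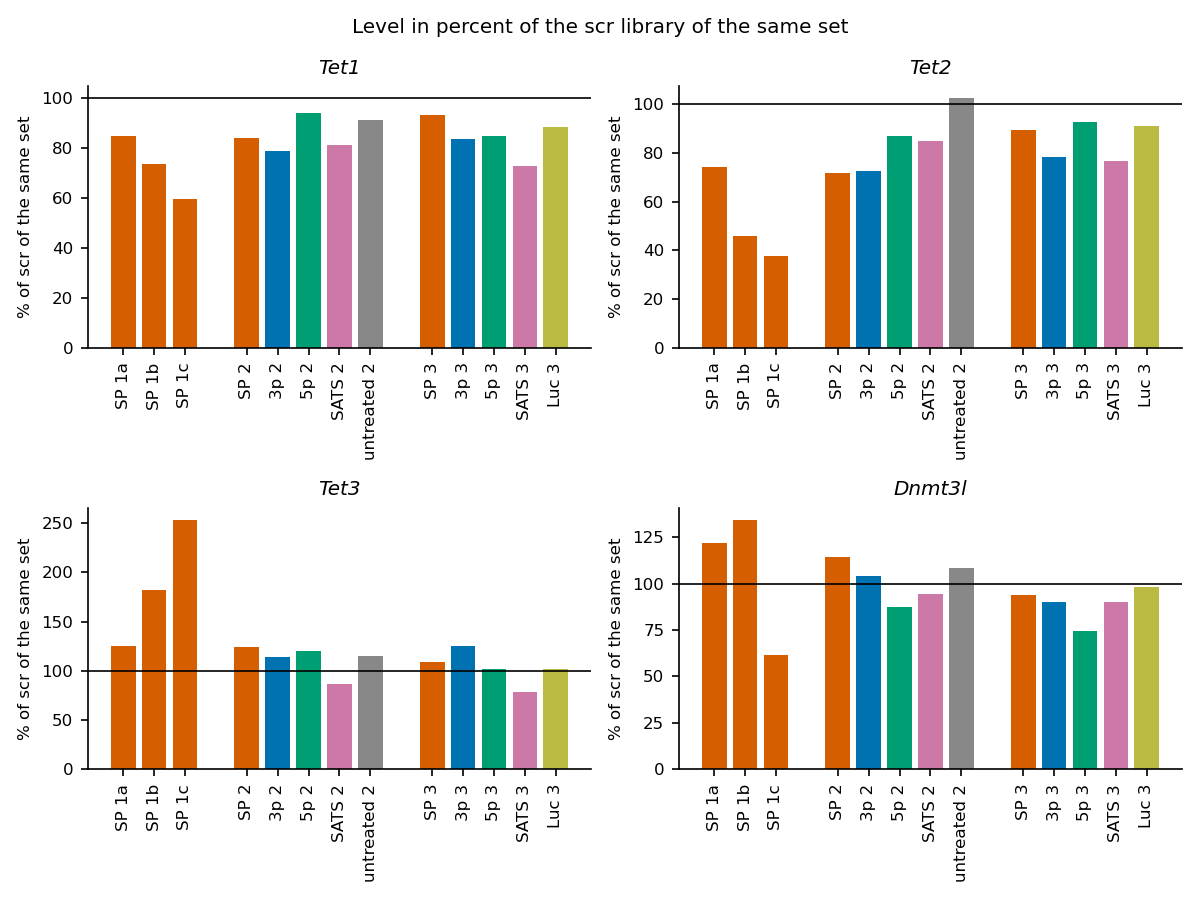
Level of Tet1, Tet2, Tet3 and Dnmt3l as a percent of scr of the same set, with 1 bar per knockdown or control library and a line at 100%. All knockdown bars of Tet1 (59.6% to 94.0%) and Tet2 (37.8% to 92.7%) end below the line, as do both control bars of Tet1.

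*Uhrf1*, *Tet1* and *Tet2* were the 3 of 8 members whose 8 knockdown libraries in sets 2 and 3 all lay below scr. Over the 11026 genes 6.53% did so, and 11.9% had all 8 on 1 side. The untreated and Luc libraries were also below scr for *Uhrf1* and *Tet1*, a pattern that 2.95% of genes showed, so for these genes the scr libraries were high against every other library of their sets. Each of these counts rests on the same 2 scr libraries.

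*Tdg* (chr10:82629828-82650799, plus strand), the glycosylase of the pathway, was near the lower end of what these libraries can measure. It had 50 reads in scr of set 2, 33 in SP, 33 in 3p, 30 in 5p, 48 in SATS and 50 in untreated cells, which is 13.7 to 21.9 normalised reads. In set 3 it had 53 reads in scr, 39 in SP, 39 in 3p, 23 in 5p, 68 in SATS and 42 in Luc, which is 10.6 to 24.6 normalised. The exact Poisson 95% interval of the normalised value was 15.6 to 27.6 in scr of set 2 and 9.66 to 20.4 in 5p of the same set, for counting error alone. Values were below scr in 7 of 8 knockdown libraries of sets 2 and 3, the exception being SATS of set 3, and in set 1 the 3 to 5 reads per library do not resolve a side. Log2 differences were -0.72 for 5p (SE 0.25, adjusted p = 0.177), -0.45 for SP and -0.43 for 3p in sets 2 and 3 and -0.04 for SATS, and none passed. With 77.9% of its coding windows shared, as the stretch printed above shows, what share of *Tdg* reads was counted at all is not known.

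Genes around the members were counted in 7 lists. Without the block no gene of these lists was called in any comparison, and with it the counts were as follows. Each list but that of germline genes had 2 genes called in at least 1 of the 6 comparisons. Over all genes tested, 7.02% were called in this way. Among 9 genes from the families of methyl-CpG readers, not all of which bind methylated CpG, *Zbtb38* fell in SP of sets 2 and 3 (-0.78, SE 0.097, adjusted p = 0.0016). It went from 507 to 308 normalised reads in set 2 and from 328 to 182 in set 3. In 3p, 5p and SATS it had 475, 542 and 440 in set 2, and 337, 308 and 274 in set 3. *Zbtb4* rose in 5p (0.67, adjusted p = 0.0333) and SATS (0.65, adjusted p = 0.0374), and the other 7 were not called. Of 7 cofactors and regulators of maintenance, both calls were rises in SATS. They were *Hells*, a chromatin remodeller needed for methylation of repeats (0.37, adjusted p = 0.0321), and *Dppa3*, which acts against maintenance by keeping UHRF1 off chromatin (0.75, SE 0.13, adjusted p = 0.0190). *Dppa3* had 262 normalised reads in scr and 403 in SATS of set 2, and 159 and 295 in set 3. The SATS libraries were the highest of their sets for both genes.

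Of 14 genes listed under base excision repair or linked to it, *Gadd45b* fell in 5p (-0.60, adjusted p = 0.0176) and *Ung*, the uracil glycosylase, in SATS (-0.46, adjusted p = 0.0209). Another 13 genes serve the supply of the methyl donor, or make or use 2-oxoglutarate, which TET enzymes need. Of these, *Idh1* rose in 5p (0.35, adjusted p = 0.0255) and *Idh2* was lower in 5p than in 3p (-0.35, adjusted p = 0.0214). Of 20 S phase genes, counted because maintenance genes follow the cell cycle, *Ccne2* rose in SATS (adjusted p = 0.0080), from 322 to 528 normalised reads in set 2 and from 400.2 to 1100 in set 3, and in 5p (0.58, adjusted p = 0.0485), and *Cdc6* fell in 5p (-0.36, adjusted p = 0.0332). All 20 S phase genes had a negative difference for SP in sets 2 and 3, with a median of -0.07 and none called, where 50.01% of all genes were positive. In 3p 16 of the 20 were negative, and in 5p and SATS 14 were. The summed S phase genes were highest in scr both in set 2 (55382) and in set 3 (59865), above the untreated and Luc libraries too.

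Of 10 factors known to regulate the *Dnmt3* or *Tet* genes, *Tfcp2l1*, a naive pluripotency factor, fell in SP (-0.49, SE 0.087, adjusted p = 0.0190) and SATS (-0.58, adjusted p = 0.0131). It had 5401 normalised reads in scr of set 2, 3979 in SP and 3863 in SATS, and 3096, 2117 and 1928 in set 3. *Lin28a*, an RNA-binding protein, fell in 5p (-0.68, SE 0.085, adjusted p = 0.0011), from 8704 to 5997 in set 2 and from 9992 to 5629 in set 3, and was also lower in 5p than in 3p (-0.66). *Esrrb*, another naive factor of that list, was not called in any comparison. In set 1 it was 9523 in scr and 2835 to 5467 in SP. In scr and SP it was 4255 and 3461 in set 2 and 2564 and 1946 in set 3. *Lin28a* lay above scr in SP of set 1, at 5243 in scr and 6313 to 8150 in SP. In sets 2 and 3 the median log2 difference of the list was -0.24 in SP, -0.21 in 3p, -0.18 in 5p and -0.11 in SATS, beside medians over all genes between -0.00 and 0.01.

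Germline genes that promoter methylation keeps silent in the embryo had 4 of 13 genes called in at least 1 of the 6 comparisons with the block, where 7.02% of all genes tested were. *Ddx4*, an RNA helicase of germ cells, rose in 3p (0.80, adjusted p = 0.0407), from 313 to 414 normalised reads in set 2 and from 288 to 660 in set 3. *Stk31* rose in 3p (0.64, adjusted p = 0.0458) and SATS (0.65, adjusted p = 0.0209). *Sycp3*, of the meiotic chromosome axis, fell in 5p (-1.54, SE 0.17, adjusted p = 0.0004) and rose in SATS (0.72, adjusted p = 0.0376). Its normalised reads in scr, 5p and SATS were 213, 71.6 and 261 in set 2 and 264, 90.7 and 582 in set 3. *Sycp3*, *Ddx4* and *Taf7l* were lower in 5p than in 3p, by -1.88, -0.82 and -1.25. The 12 genes of the list that passed the filter on low values were all positive for SP in sets 2 and 3 (median 0.18) and for 3p (median 0.47), where 50.01% and 49.0% of all genes were positive. In 5p 7 of the 12 were positive and in SATS 9 were. Among the 12, *Dpep3* had 1.26 and 0.397 normalised reads in scr of sets 2 and 3, and *Tex101* had 7.97 and 3.17. At such levels a few reads decide the sign.

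Genes whose values moved most like those of a member were read off as a description over the 12 libraries of sets 2 and 3, with each set's mean removed, among 11026 genes. For *Uhrf1* they were *Wdr55* (Pearson r = 0.949), *Usp10* (0.932) and *Srm* (0.928). For *Dnmt3b* they were *Tubb5* (0.973), *Zcchc8* (0.928) and *Ncdn* (0.925), and for *Tet1* they were *Cntn2* (0.918), *Mga* (0.906) and *Sp1* (0.904). The libraries of a set share their scaling and cells, and the highest of so many correlations over 12 points is high by selection, so no test is given.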

How the data were processed

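The 16 RNA-seq libraries of mESCs in serum were used. The authors aligned reads to mm10 with hisat2 (Nextflow v19.01.0), counted them with featureCounts and deposited a normalized signal, reads divided by DESeq2 1.14.1 size factors. Within a library 100% of values were whole multiples of 1 read (within 0.01 read), which gave the depth. The authors' edgeR 3.16.5 CPM table of set 1 was not used. Libraries were grouped by label. From the deposited signal, limma 3.58.1 (R 4.3.3; lmFit, then eBayes with trend) was run on log2(value + 1) over genes summing to at least 10, with Benjamini-Hochberg adjustment: SP against scr over 3 sets, SP 1a to 1c averaged, and 1 fit of the 10 scr and knockdown libraries of sets 2 and 3. Fold changes on this scale understate those of low genes. Set numbers, from the labels, paired the samples, with deviations of every pair correlated at 0.772 to 0.934 (Pearson r), so a block on set was also fitted. Members, lists and tests were chosen with earlier results of these data known, and 5 of the 6 pairs of knockdowns were added after seeing the data. From each list the genes past the threshold were named, at most 4 in a comparison. The fits were tested on simulated data. Alternatives were edgeR 4.0.16 and DESeq2 1.42.0 on the recovered reads, TMM factors, factors without *Rn45s*, other pseudocounts and filters, no trend, added controls and left-out libraries. Coordinates are from GENCODE M21 (GRCm38), sequences from its transcripts and from RefSeq (GRCm38.p6). Reads after PCR are not separate molecules, and intervals from depth cover counting error only. 1 read was worth 3.22 to 8.05 normalised reads in set 1 and 0.353 to 0.479 in sets 2 and 3.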

Additional observations from a re-analysis of the deposited data

Results flagged for a closer look

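Differences between knockdowns that passed a test of the difference itself, with the set as a block, were those of *Tet3* in SATS against SP (-0.50 on the log2 scale), 3p (-0.54) and 5p (-0.43), and that of *Dnmt3l* in 5p against SP (-0.36). The first 3 share the 2 SATS libraries, and all of these pairs were added after seeing the data. For *Dnmt1*, SP lay below scr in each SP library of set 1 (mean log2 difference -0.16) and above it in sets 2 and 3 (mean 0.11), a difference between the sets of -0.27 that was not tested. No group had enough libraries for a check of single outlying values.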

How the results depend on the processing

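Without the block 0 members were called in each comparison with scr and in 5p against 3p, for every alternative without a block. With the block, SATS against scr had 1 call (*Tet1*) in limma and 1 in edgeR (-0.37, adjusted p = 0.0396, 3.34% of all genes called), and SP over 3 sets had 1 in edgeR (*Tet2*) and 0 to 1 when a set was left out, the call being made without set 1. With untreated and Luc added to the controls and the block, 3p had 1 call (*Tet2* -0.38, adjusted p = 0.0299; 1.31% of all genes), 5p had 1 (*Dnmt3l*; 6.71% of all genes) and SATS had 3 (10.7% of all genes; *Tet1*, *Tet2* -0.29 with adjusted p = 0.0355, *Tet3* -0.34 with adjusted p = 0.0121). Leaving out single libraries gave 0 to 2 calls for SATS against scr. *Tet1* was then between -0.47 and -0.29, with adjusted p = 0.440 without SATS of set 3, 0.181 without scr of set 2 and 0.317 without scr of set 3, and without SATS of set 2 *Tet2* was also called (-0.45, adjusted p = 0.0294, 4.41% of all genes). For the pairs of knockdowns it gave 0 to 1 calls. *Tet3* lost the call against SP without SATS of set 3 or SP of set 2, against 3p without SATS or 3p of set 3, and against 5p without SATS of set 3 or either 5p library, with differences from -0.68 to -0.33. *Dnmt3l* in 5p against SP lost it without 5p of set 3 or either SP library (-0.44 to -0.27). The cause was not tested beyond fewer libraries leaving less to estimate the spread. The replicate block changed no call of a member beyond those named here. No called value changed sign under TMM factors, factors without *Rn45s* or any other alternative. A left-out library leaves its group with 1, which is assumed to vary like the others. Depth limits *Tdg* most, with 3 to 5 reads a library in set 1.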
